A study of Mus musculus with 7 samples.

Results

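The BCL2 family decides at the mitochondrion whether a cell keeps its outer membrane intact or starts apoptosis. The 10 genes described here, of 54347 in the deposited table, were taken by symbol from its gene rows. They are the pro-survival genes Bcl2, Bcl2l1 and Mcl1, the effectors Bax and Bak1, and the BH3-only genes Bcl2l11, Bbc3, Pmaip1, Bid and Bad. Each symbol matched 1 row. They were measured by RNA sequencing in LT-HSCs, the long-term haematopoietic stem cells of bone marrow, which can restore all blood lineages for life. There were 3 libraries from Emcn-/- mice (KO: ko_306, ko_314 and ko_320) and 4 from Emcn+/+ littermates (WT: wt_284, wt_290, wt_310 and wt_312), each from a single mouse. Endomucin, the product of Emcn, is a surface sialomucin, and the series title names it as a mark of quiescent stem cells.

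All mice were female, of the strain labelled C57BL/6N-EMCN em1(IMPC)Wtsi /WtsiH, with no treatment named. Neither their ages nor the exons that the allele changes are stated in the labels. Marrow of the hind leg bones was lineage-depleted and sorted after staining for CD48, CD150, CD16/CD32, Sca-1, c-kit and lineage antigens. A dead-cell dye, 7-AAD, was in the stain. If cells positive for it were gated out, the libraries describe cells that were alive by that dye.

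In a living cell the pro-survival proteins hold BAX and BAK, the effectors that make pores in the mitochondrial outer membrane. BH3-only proteins are induced or activated by stress or by loss of growth factors, bind the pro-survival proteins and, in part, switch on the effectors directly. Mouse haematopoietic stem cells are known to need MCL1 to survive, and extra BCL2 is known to protect them. All of these proteins share a short helix, the BH3 motif, through which they bind each other. Its coding bases are shown because all 3 classes meet through this motif and BH3-only genes are named for it. Pmaip1 is not shown. The sequences are those of GENCODE M21 transcripts (GRCm38), 5′ to 3′ on the coding strand. Capitals mark the 6 codons that run from the conserved leucine to the conserved aspartate, and the coordinates are those of the capitals.
Bcl2, chr1:106712584-106712601, minus strand: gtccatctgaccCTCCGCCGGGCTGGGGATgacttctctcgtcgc
Bcl2l1, chr2:152829706-152829723, minus strand: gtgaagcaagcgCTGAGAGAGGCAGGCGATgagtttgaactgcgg
Mcl1, chr3:95659436-95659453, plus strand: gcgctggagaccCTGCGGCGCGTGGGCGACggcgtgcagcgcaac
Bax, chr7:45466006-45466023, minus strand: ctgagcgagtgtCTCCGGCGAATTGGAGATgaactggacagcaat
Bak1, chr17:27022540-27022557, minus strand: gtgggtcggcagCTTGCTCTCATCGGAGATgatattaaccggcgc
Bcl2l11, chr2:128147150-128147167, plus strand: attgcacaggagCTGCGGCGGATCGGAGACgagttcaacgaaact
Bbc3, chr7:16313773-16313790, plus strand: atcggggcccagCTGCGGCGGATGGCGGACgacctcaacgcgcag
Bid, chr6:120897298-120897315, minus strand: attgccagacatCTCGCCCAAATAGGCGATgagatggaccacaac
Bad, chr19:6950792-6950809, plus strand: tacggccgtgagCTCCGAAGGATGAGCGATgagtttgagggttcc

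In each of these 9 genes the core lies within 1 coding exon. Of the 18 core bases of Bcl2l11, Bbc3 shares 15, Mcl1 and Bax 14, Bcl2, Bak1 and Bad 11, and Bcl2l1 and Bid 9, so likeness in these bases did not follow the classes. Counts were made per gene, so they do not tell splice forms of a gene apart.

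Library totals ran from 6444134 to 11101774 estimated counts, and genes detected from 18507 in wt_312 to 23317 in wt_290. Emcn, the targeted gene, had 1, 0 and 0 counts in KO libraries and 130 to 327 counts in WT libraries. All 10 LT-HSC markers checked, among them Procr, Slamf1 and Hlf, were detected in every library. Levels are given in CPM, the counts of a gene relative to the TMM-scaled size of its library. The summed marker level was 1730 to 1996 CPM in KO and 1256 to 1957 CPM in WT. The lowest was wt_284, and the other WT libraries began at 1823 CPM. The library wt_284 stood apart. Its 19 neutrophil and monocyte markers, such as Mpo and Elane, summed to 15422 CPM, against 219 to 723 CPM in KO libraries and 263 to 1341 CPM in the other WT libraries. All 19 of these markers had negative log2 fold changes in KO. None was at 0 in every library, but Ctsg, Ly6g, Fcgr3, Cebpe and Ccr2 were at 0 in ko_314, Ms4a3, Ly6c2, Ly6g and Cebpe in ko_320, and Ly6g, Csf1r and Ccr2 in wt_312. Fold changes of the tested members and the class balances are therefore also given without wt_284, as are those of some other genes. In sorted bulk samples, fewer cells of a type and less RNA per cell cannot be told apart.

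The comparison asks whether LT-HSCs without Emcn carry another balance of survival and death transcripts. None of the 10 genes passed the threshold between KO and WT (edgeR quasi-likelihood test, Benjamini-Hochberg adjusted p under 0.05 over all 15372 tested genes). The 9 tested members each had an adjusted p of 0.992, and 0.00651% of all tested genes, Emcn alone, were called. Pmaip1 was too low for the filter on low counts. Of the 9, 8 had a negative and 1, Bcl2, a positive log2 fold change (KO minus WT), where 52.4% of all tested genes were negative. The median was -0.50 for the 9 and -0.02 for all tested genes. Without wt_284 the medians were -0.23 and 0.00, and 6 of the 9 were negative.

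In 3 of the 9 genes, Mcl1, Bcl2l11 and Bid, every KO library lay below every WT library, against 2.43% of all tested genes. In 0 of the 9 did every KO library lie above, against 2.43% of all genes. The same 3 genes did so without wt_284, where 3.62% of all genes did. At an unadjusted p under 0.05 there was 1 member, Bcl2l11, where 3.27% of all tested genes were.

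**Figure D1:**
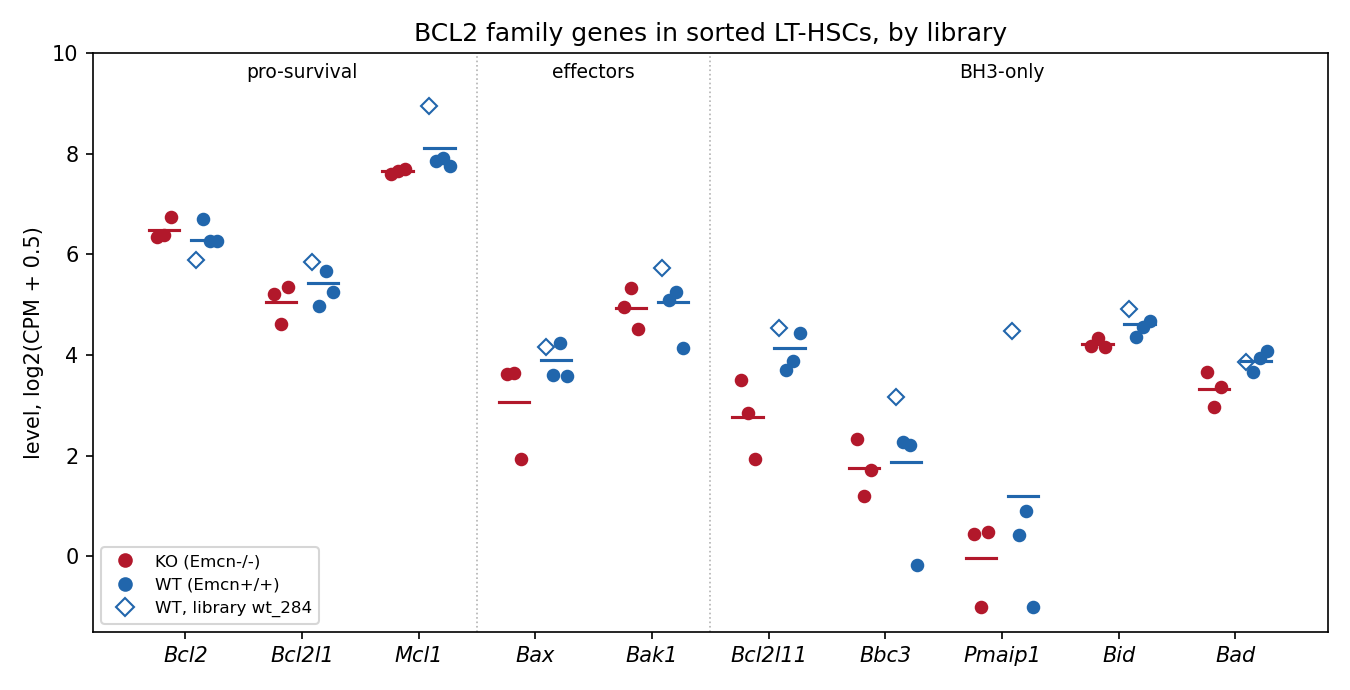
Level of each of the 10 genes in each library, as log2(CPM + 0.5), with KO libraries (red) left of WT libraries (blue); the open diamond is wt_284 and bars are group means. The KO libraries of Mcl1, Bcl2l11 and Bid sit below all WT libraries, and Pmaip1 is high in wt_284 alone.

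Mcl1 encodes a short-lived pro-survival protein. Its level was 194, 201 and 208 CPM in ko_306, ko_314 and ko_320, and 493, 230, 242 and 215 CPM in wt_284, wt_290, wt_310 and wt_312. KO libraries were close to each other, and wt_284 was more than 2-fold above every KO library. The means were 201 ± 7.0 CPM in KO (SD, n = 3) and 295 ± 132 CPM in WT (SD, n = 4). The fitted difference, KO minus WT, was -0.56 on the log2 scale (95% interval -1.19 to 0.08). Without wt_284 it was -0.19 with an unadjusted p of 0.192, so 1 library sets most of its size, although the remaining WT libraries still lay above all KO libraries. With the mean log2 CPM of the neutrophil and monocyte markers as a covariate it was 0.018.

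Bcl2, the founding member of the family, stood at 81.3, 82.8 and 107 CPM in KO and at 58.7, 103, 76.4 and 76.7 CPM in WT, in the same library order. The groups overlapped, and wt_284 held the lowest level, opposite to Mcl1. Its log2 fold change was 0.20 with an interval from -0.24 to 0.63, and 0.08 without wt_284. Bcl2l1, which encodes BCL-XL, a protector of platelets and red cell precursors, stood at 36.7, 24.0 and 40.2 CPM in KO and at 57.1, 31.1, 50.4 and 37.4 CPM in WT. Its groups overlapped, with ko_314 lowest and wt_284 highest. The log2 fold change was -0.38 (-0.96 to 0.19), and -0.23 without wt_284.

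Within the pro-survival class Mcl1 dominated. On a scale of CPM per kb of merged exons it made up 77.1%, 80.5% and 74.8% of the class in ko_306, ko_314 and ko_320. The share was 88.4% in wt_284 and 78.5% to 79.2% in the other WT libraries. Bcl2 made up 12.1% to 14.4% in KO and 9.25% to 13.2% in WT libraries other than wt_284, where it was 3.93%.

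Of the effectors, Bax was low in 1 KO library. Its counts were 138, 80 and 26 in ko_306, ko_314 and ko_320, or 11.9, 11.9 and 3.31 CPM, and WT libraries held 17.3, 11.6, 18.5 and 11.4 CPM. The groups overlapped, and ko_306 and ko_314 were level with wt_290 and wt_312. Bax had a log2 fold change of -0.70 (-1.67 to 0.27), with -0.61 without wt_284 and -0.28 without ko_320. Bak1 stood at 30.7, 39.8 and 22.4 CPM in KO and at 52.4, 33.7, 37.4 and 17.2 CPM in WT. WT libraries spanned the whole KO range, and the log2 fold change was -0.19 (-0.92 to 0.55), with 0.074 without wt_284.

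Bcl2l11 encodes BIM, a BH3-only protein that binds all pro-survival members and is a known target of FoxO factors when growth factors are withdrawn. Its gene lies on the plus strand of chr2:128126038-128162547 (GRCm38). Counts were 126, 45 and 26 in ko_306, ko_314 and ko_320, and 187, 132, 93 and 166 in wt_284, wt_290, wt_310 and wt_312. In CPM this was 10.8, 6.71 and 3.31 in KO and 22.7, 12.5, 14.2 and 21.3 in WT. Every KO library was below every WT library, and the nearest pair was ko_306 and wt_290. Means were 6.96 ± 3.78 CPM in KO (SD, n = 3) and 17.7 ± 5.1 CPM in WT (SD, n = 4).

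The log2 fold change of Bcl2l11 was -1.33 ± 0.43 (SE), a 0.397-fold level in KO, with an interval from 0.207-fold to 0.759-fold. The unadjusted p was 0.00892 and the adjusted p 0.992, so it did not pass over all genes. Over 14 alternative fits the log2 fold change ran from -1.84 to -0.96, the unadjusted p from 0.00172 to 0.0352 and the adjusted p from 0.225 to 1.00. Without wt_284 it was -1.19, and with the neutrophil and monocyte level as a covariate -1.15. It moved more with the KO libraries: -0.98 without ko_320, which held 26 counts, and -1.84 without ko_306. Neutrophil and monocyte markers summed to 723, 253 and 219 CPM in ko_306, ko_314 and ko_320, the same order as Bcl2l11. In WT they summed to 15422 CPM in wt_284, 1341 CPM in wt_290 and in wt_310, and 263 CPM in wt_312. Among WT libraries wt_284 and wt_312 had the most Bcl2l11, at 22.7 and 21.3 CPM. Genes detected numbered 23199, 19027 and 18649 in ko_306, ko_314 and ko_320, also the order of Bcl2l11. In WT the fewest, 18507, were in wt_312, where Bcl2l11 was high. Mast cell and basophil markers, of which all 4 tested of 6 were negative, summed to 0 to 8.09 CPM in KO and 8.86 to 91.3 CPM in WT, and all 6 were at 0 in ko_314. Erythroid markers summed to 201 to 390 CPM in KO and 299 to 5235 CPM in WT. The part of these cells, or of the number of genes detected, in the difference of Bcl2l11 was not tested. Foxo3, a transcription factor of that response, stood at 245, 195 and 201 CPM in KO and 200 to 263 CPM in WT. Its log2 fold change was -0.15 (-0.48 to 0.17). Foxo1, another FoxO gene, had -0.27 (-0.84 to 0.29). These are transcript levels, and the activity of the factors was not tested.

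Bid, which caspase-8 cuts to link death receptors to mitochondria, stood at 17.7, 19.7 and 17.4 CPM in KO and at 29.7, 20.02, 22.9 and 25.04 CPM in WT. KO libraries lay below all WT libraries, but ko_314 and wt_290 were nearly equal. The log2 fold change was -0.42 (-0.97 to 0.13), and -0.31 without wt_284. Bad, which growth factor signalling keeps phosphorylated and inactive, stood at 12.2, 7.31 and 9.81 CPM in KO and at 13.9, 12.1, 14.8 and 16.3 CPM in WT. Only ko_306 and wt_290 overlapped. For Bad the log2 fold change was -0.54 (-1.26 to 0.18), and -0.55 without wt_284.

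Bbc3 and Pmaip1 encode PUMA and NOXA, BH3-only proteins that p53 induces. Bbc3 had 53, 12 and 22 counts in KO (4.56, 1.79 and 2.80 CPM) and 70, 46, 27 and 3 counts in WT (8.49, 4.34, 4.13 and 0.385 CPM). WT libraries held both the highest and the lowest level, and the log2 fold change was -0.50 (-2.32 to 1.33), with 0.056 without wt_284.

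Pmaip1 had 10, 0 and 7 counts in KO and 180, 9, 9 and 0 counts in WT. At 21.8 CPM wt_284 was far above the other libraries, which ran from 0 to 0.891 CPM in KO and from 0 to 1.38 CPM in WT. For the libraries with a count of 0, a limit of 3 counts, which covers counting error only, corresponds to 0.447 CPM (ko_314) and 0.385 CPM (wt_312). With no filter edgeR gave -3.29 with an unadjusted p of 0.00161 and an adjusted p of 0.215, and over the 4 alternative edgeR fits that tested it the adjusted p ran from 0.215 to 1.00. That difference rests on wt_284, with 180 counts against 0 to 10 in every other library. Under the main filter the gene passed only when a KO library was left out. Trp53 itself stood at 58.8 to 71.4 CPM in KO and 54.4 to 79.4 CPM in WT, with a log2 fold change of -0.04 (-0.44 to 0.35).

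**Figure D2:**
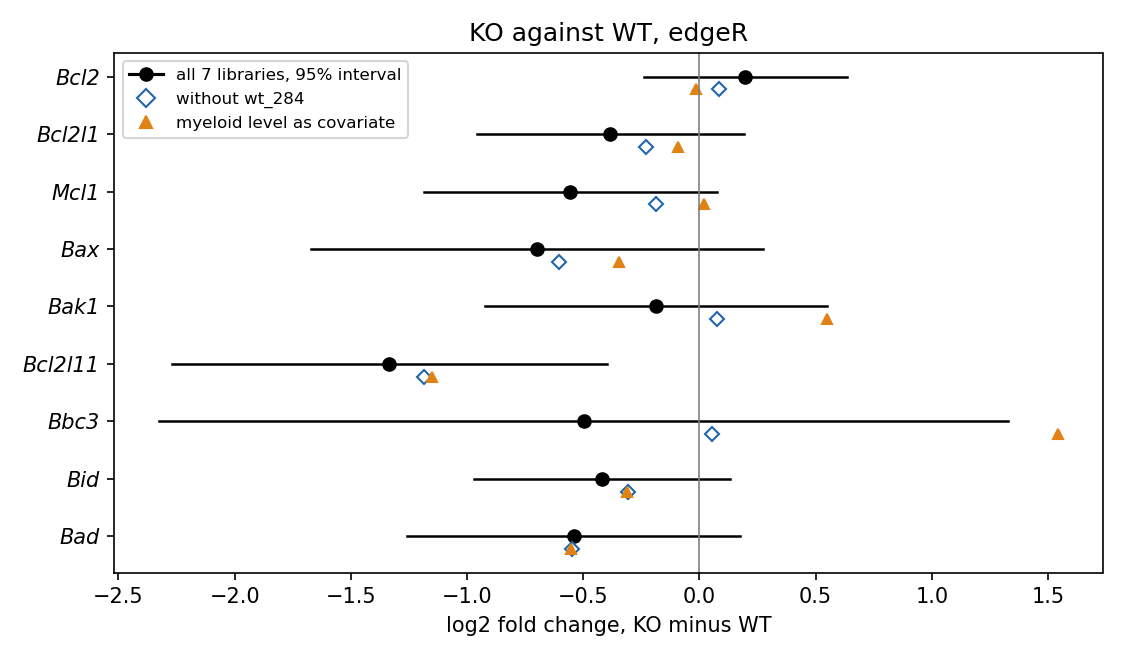
Log2 fold change (KO minus WT) of the 9 tested genes in edgeR, with all 7 libraries (black, bars are 95% intervals), without wt_284 (open diamonds) and with the mean log2 CPM of neutrophil and monocyte markers as a covariate (triangles). Of the 9 intervals, that of Bcl2l11 lies below 0, and Mcl1, Bak1 and Bbc3 move to 0 or above it with the covariate.

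The 95% interval lay within 2-fold in either direction for 4 of the 9 tested members, Bcl2, Bcl2l1, Bak1 and Bid, as it did for 49.6% of all tested genes. For the others a 2-fold difference was not excluded by these intervals. Over all 7 libraries the SD of log2(CPM + 0.5) was 0.27 for Bid, 0.29 for Bcl2 and 0.38 for Bad. It was 0.91 for Bcl2l11, 1.07 for Bbc3 and 1.84 for Pmaip1, against a median of 0.42 over all tested genes.

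**Figure D3:**
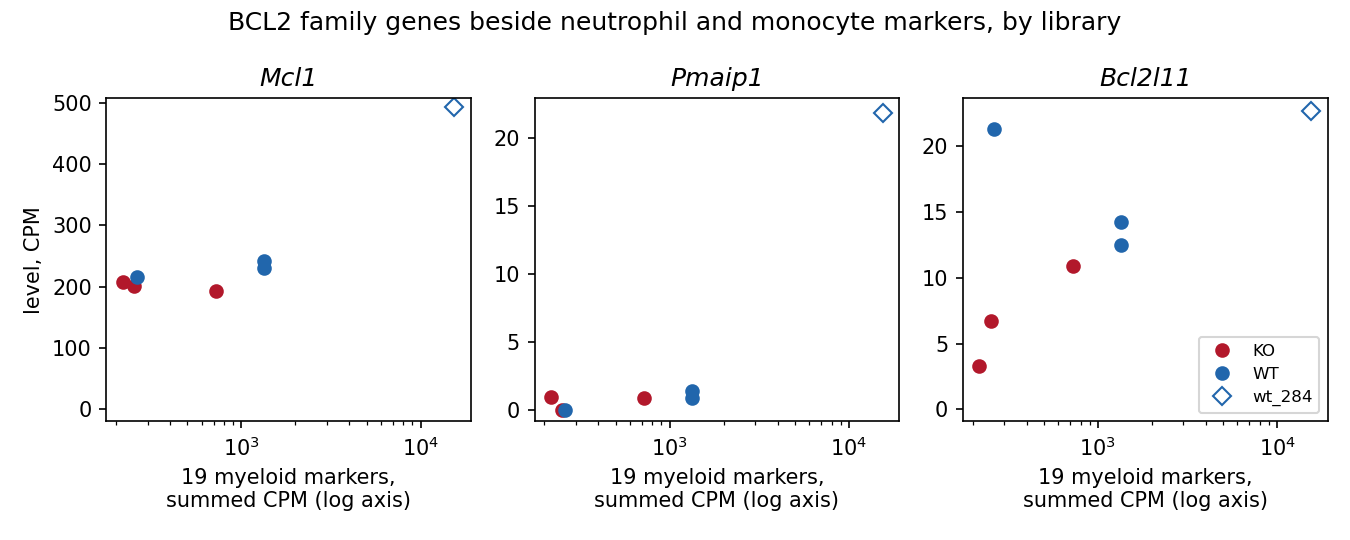
Level in CPM of Mcl1, Pmaip1 and Bcl2l11 in each library (y axis) against the summed CPM of 19 neutrophil and monocyte markers (x axis, log scale), with KO in red, WT in blue and wt_284 as an open diamond. Mcl1 at 493 CPM and Pmaip1 at 21.8 CPM are high in wt_284 alone. Bcl2l11 is highest in wt_284, at 22.7 CPM, and also high, at 21.3 CPM, in wt_312 with its low marker sum. Among KO libraries Bcl2l11 rises with the marker sum.

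Levels of different genes were compared per kb of merged exons. In KO, Mcl1 stood at 58.7 ± 2.0 CPM per kb, followed by Bak1 at 12.9 ± 3.6, Bcl2 at 9.86 ± 1.56, Bcl2l1 at 7.34 ± 1.86 and Bax at 5.74 ± 3.15 (SD, n = 3). Bid at 5.14 ± 0.35, Bad at 3.82 ± 0.96, Bbc3 at 1.44 ± 0.66, Bcl2l11 at 0.867 ± 0.470 and Pmaip1 at 0.214 ± 0.185 followed in CPM per kb. In WT the mean of Mcl1 was 86.3 ± 38.7 CPM per kb and that of Bak1 14.6 ± 6.0, with Bcl2l1 at 9.59 ± 2.59, Bax at 9.34 ± 2.36 and Bcl2 at 8.59 ± 2.00 (SD, n = 4). Bid had 6.88 ± 1.15, Bad 5.59 ± 0.69, Bcl2l11 2.20 ± 0.63, Pmaip1 2.20 ± 3.86 and Bbc3 2.04 ± 1.56 CPM per kb in WT.

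Mcl1 was above every other member in each library. Bak1, Bcl2, Bcl2l1, Bax, Bid and Bad formed a middle group in which neighbours overlapped in WT. In KO libraries, Bcl2 lay just above Bcl2l1 and Bid just above Bad without overlap. Bad lay above Bcl2l11 and Bbc3 in every library, and Bcl2l11 and Bbc3 overlapped in both groups. The order within the middle group depends on the length used: per kb of the longest transcript Bcl2l1 averaged 15.4 CPM over all 7 libraries and Bak1 13.98.

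The balance of the classes was read within each library as the ratio of summed levels in CPM per kb, with no test, because the members were chosen with earlier results known. Pro-survival over effector levels gave 3.63, 3.03 and 7.11 in ko_306, ko_314 and ko_320 and 4.98, 3.99, 3.30 and 5.52 in wt_284, wt_290, wt_310 and wt_312. The groups overlapped, and ko_320, the library with little Bax, was highest. On the log2 scale the means were 2.10 ± 0.65 in KO (SD, n = 3) and 2.13 ± 0.33 in WT (SD, n = 4), a difference of -0.029, or 0.034 without wt_284.

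Pro-survival over BH3-only levels gave 5.42, 7.26 and 7.51 in KO and 5.70, 5.98, 5.47 and 4.89 in WT. Both ko_314 and ko_320 were above all WT libraries and ko_306 was within the WT range. Log2 means were 2.74 ± 0.26 in KO (SD, n = 3) and 2.46 ± 0.12 in WT (SD, n = 4), a difference of 0.28, or 0.29 without wt_284. With Mcl1 left out of the sum the difference was 0.58 over all 7 libraries. That value was not computed without wt_284, where Mcl1 held 88.4% of the pro-survival level. The summed BH3-only level itself was 13.6, 10.1 and 10.8 CPM per kb in KO and 28.6, 14.3, 16.5 and 16.3 CPM per kb in WT, with every KO library below every WT library. Bid and Bad together made up most of it in 6 of the 7 libraries. In wt_284 Pmaip1 held 27.9% of it, against 0% to 3.02% in KO and 0% to 3.06% in the other WT libraries.

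Ratios of single genes in CPM per kb moved with single libraries. Bcl2 over Bax was 1.18, 1.19 and 5.55 in KO and 0.583, 1.53, 0.711 and 1.15 in WT, so ko_320 alone was above the WT range. Mcl1 over Bcl2l11 was 41.9, 70.4 and 147 in KO and 51.1, 43.3, 40.0 and 23.7 in WT. Again ko_314 and ko_320 were above all WT libraries and ko_306 was not.

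**Figure D4:**
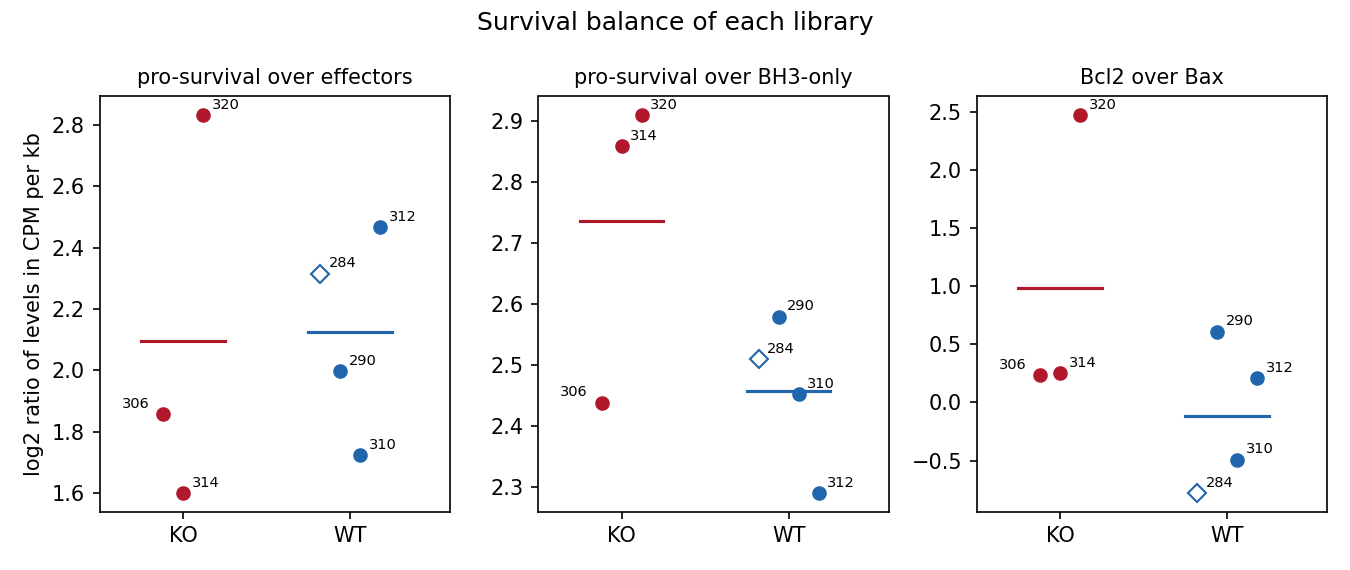
Log2 ratio of levels in CPM per kb within each library, for pro-survival over effector genes, pro-survival over BH3-only genes, and Bcl2 over Bax, with KO (red) left of WT (blue), mouse numbers beside the points, bars at group means and wt_284 as an open diamond. KO and WT overlap in each panel, ko_320 is highest in all 3, and ko_314 joins it above WT in the middle panel.

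Of 15 other BCL2 family genes, 7 were tested and 0 passed in either direction, with 2 positive and 5 negative log2 fold changes and a median of -0.18. Bcl2l2, which encodes the pro-survival BCL-W, had 0.25 (-0.49 to 0.99). Bnip3, a mitophagy receptor that low oxygen induces, stood at 22.1, 37.7 and 20.5 CPM in KO and 13.998 to 21.9 CPM in WT, with a log2 fold change of 0.56 (-0.08 to 1.19). Its relative Bnip3l, needed for clearing mitochondria from red cell precursors, was at 108 to 116 CPM in KO and 117 to 149 CPM in WT, with every KO library below WT and a log2 fold change of -0.18 (-0.50 to 0.14), or -0.09 without wt_284. Bcl2l12 had -0.30, Bcl2l13 -0.16, Bcl2l14 -0.21 and the BH3-only gene Bmf -0.43.

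The remaining 8, Bcl2l10, Bcl2a1a, Bcl2a1b, Bcl2a1d, Bok, Bik, Hrk and Bcl2l15, were too low to be tested. Bcl2a1a, Bcl2a1b and Bcl2a1d are near-identical copies of a pro-survival gene that share reads, so their split is uncertain. Each of the 3 averaged at most 0.172 CPM in KO and 0.438 CPM in WT.

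Downstream of the mitochondrion, 12 of 12 genes of the caspases and the apoptosome were tested and 0 passed, with a median log2 fold change of -0.02. Casp6 had 0.25 and Casp8, the initiator of death receptors, 0.18. Caspase and death receptor inhibitors gave 0 calls of 7 tested and a median of -0.06. Birc5, also a mitosis gene, had -0.57 (-1.52 to 0.38) and -0.07 without wt_284, Xiap had -0.13 and Birc3 0.13. Death receptors and adaptors gave 0 calls of 8 tested and a median of 0.02. Tnfrsf1a, a receptor of TNF, had -0.53 (-1.14 to 0.09) and -0.26 without wt_284, Tnfrsf10b, the mouse TRAIL receptor, had 0.61 (-0.27 to 1.497), and Ripk1 had -0.24.

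Partners of the family at the mitochondrion and the endoplasmic reticulum gave 0 calls of 9 tested, with a median of 0.09. Dnm1l, the GTPase of mitochondrial division, stood at 112, 127 and 119 CPM in KO and 75.9 to 99.2 CPM in WT, with every KO library above WT, and had 0.51 (0.17 to 0.84). Itpr2, an IP3 receptor calcium channel, stood at 53.9, 53.7 and 43.8 CPM in KO and 117, 56.8, 67.1 and 66.0 CPM in WT. Its log2 fold change was -0.61 (-1.14 to -0.07), and -0.32 without wt_284. The channel gene Vdac3 had 0.28 (-0.09 to 0.65).

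Among regulators of the family, 21 of 24 were tested and 0 passed, with a median of -0.10. Zfp36, an RNA-binding protein that speeds the decay of AU-rich transcripts, stood at 25.2, 27.9 and 14.8 CPM in KO and at 183, 36.7, 38.1 and 32.0 CPM in WT. Every KO library was below WT, and the log2 fold change was -1.68 (-3.61 to 0.26), or -0.65 without wt_284. Stat3 had -0.32 (-0.80 to 0.17) and Hif1a -0.24 (-0.59 to 0.12). All of these pathway genes had an adjusted p of at least 0.992.

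Some members share exonic bases with another gene. Bax overlaps Gm45808 on its own strand, which held 0 CPM in KO and at most 0.850 CPM in WT. Bid overlaps Bcl2l13, Bak1 overlaps Ggnbp1, Bad overlaps Gpr137 and Bcl2 overlaps D630008O14Rik, each on the opposite strand. Bcl2l13 stood at 39.4 to 50.5 CPM in KO and 34.5 to 68.8 CPM in WT, above Bid, and Gpr137 at 5.48 to 14.9 CPM in KO and 3.596 to 8.12 CPM in WT, close to Bad. Reads assigned to the wrong strand could therefore change the levels of Bid and Bad. Whether strand was used in the counting is not stated in the labels.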

How the data were processed

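Sorted LT-HSCs of 3 KO and 4 WT mice were sequenced as stranded total RNA libraries of a SMARTer kit for small inputs, per the labels' protocols. The deposited values are estimated counts, whole numbers that were not scaled between libraries. Cutadapt and Salmon are named in the submitters' processing notes, with no versions and no annotation. Every value column matched 1 sample by name, and 0 were unused. GENCODE M21 (GRCm38), in which 98.1% of the identifiers were found with their version, gave gene lengths, positions and coding sequence. The test was edgeR's robust quasi-likelihood test (version 4.0.16, R 4.3.3) after filterByExpr and TMM scaling, KO minus WT, with Benjamini-Hochberg adjustment over 15372 genes and a threshold of 0.05. The SE is the absolute log2 fold change over the square root of F. The fit was tested on simulated data. Alternatives were DESeq2 1.42.0, RLE factors, 2 other filters, no robust step, limma-voom (3.58.1) with quality weights, a covariate and leaving out each mouse. Counts of members without each library were added after seeing the data. Named are all 10 members, the tested other BCL2 family genes, and in each pathway list the passing genes, filled to 3 by p. A gene named by this rule is not reported here. Foxo1, Foxo3 and Trp53 were named after their values were seen. Members and lists were chosen with earlier results of these data known.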

Additional observations from a re-analysis of the deposited data

Results flagged for a closer look

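Dixon's test for a value apart flags about 1 in 20 groups of this size by chance. The 46 values examined come from the same WT libraries and are not independent, so the number flagged cannot be set against that rate. In 9 of them wt_284 lay far outside the other 3 WT libraries. Among family genes these were Mcl1 at 493 CPM (the remaining WT range was 215 to 242 CPM), Pmaip1 at 21.8 CPM, against 0 to 1.38 CPM, and Bnip3l at 149 CPM, against 117 to 120 CPM. Its share of Mcl1 in the pro-survival class was 88.4%, against 78.5% to 79.2%. Itpr2 stood at 117 CPM, against 56.8 to 67.1 CPM, and Zfp36 at 183 CPM, against 32.0 to 38.1 CPM. Marker sums were also apart: 15422 CPM for neutrophil and monocyte markers (263 to 1341 CPM in the other WT libraries), 5235 CPM for erythroid markers (299 to 1130 CPM) and 85.7 CPM for B cell markers (11.8 to 16.2 CPM). The neutrophil and monocyte level entered a single alternative fit as a covariate. Beyond that fit, the part of these cells in the levels of the family genes was not tested.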

How the results depend on the processing

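No paired analysis was possible because mouse numbers are unique to a library. EdgeR called 1 gene, Emcn; DESeq2 called 12 genes, the fit with no filter 81, limma-voom with quality weights 0 (3.05% of its genes had an unadjusted p under 0.05, and Emcn had an adjusted p of 0.981), the covariate fit 2, and fits without a mouse 1 to 3 (3 without ko_306 or wt_284, 2 without ko_314 or wt_290). No member was called in any of the 14 alternatives. With the neutrophil and monocyte level as a covariate, itself lower in KO, the log2 fold change turned to -0.015 for Bcl2, 0.018 for Mcl1, 0.55 for Bak1, 1.54 for Bbc3, 0.11 for Bcl2l13, 1.90 for Bmf, 0.50 for Birc5, 0.11 for Tnfrsf1a, 0.019 for Ripk1 and 0.025 for Stat3. The smallest unadjusted p among these genes in that edgeR fit was 0.110, for Bak1, with 0.138 for Bbc3 and 0.165 for Bmf. The covariate itself was 7.82 in wt_284 and 1.38 to 4.62 in the other libraries, so wt_284 lay far from the rest on it. Limma-voom turned Bmf to 0.24 and Bcl2l14 to 0.23. Leaving out 1 mouse gave -0.39 to 0.074 for Bak1, -0.93 to 0.056 for Bbc3, -0.30 to 0.033 for Bcl2l13 and -1.29 to 0.47 for Bmf. Bcl2l1, Bax, Bcl2l11, Bid and Bad kept a negative sign in all 14. The difference in log2 pro-survival over BH3-only balance moved from 0.28 to 0.58 with Mcl1 left out and wt_284 kept. Its other alternatives ran from 0.19 to 0.43. Pro-survival over effector ran from -0.40 without ko_320 to 0.27 with Mcl1 left out. Fewer than 60 counts in most libraries limit Bbc3 and Pmaip1.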

Other observations

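The symbol Bcl2l2 stands on 2 rows of the deposited table. The row ENSMUSG00000089682.10 is Bcl2l2 in GENCODE M21 and was used here, with 102 to 165 counts in KO and 73 to 129 counts in WT. The other row, ENSMUSG00000022194.15, is named Pabpn1 there and holds 1033 to 1404 counts in KO and 685 to 1353 counts in WT. A level of BCL-W read by symbol alone would take in the more abundant row.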
